A study of Mus musculus with 24 samples.

Results

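A group of 9 genes of the KEAP1-NRF2 antioxidant pathway was followed in mouse liver: Nfe2l2, which encodes the transcription factor NRF2, Keap1, which encodes its cytoplasmic sensor, and the NRF2 targets Nqo1, Gclc, Gclm, Hmox1, Txnrd1, Srxn1, and Slc7a11. They are a named list of the pathway with no threshold on measured values, drawn up when earlier results of these data were known, and all 9 were found among the 23972 genes of the deposited counts table. The study asked how the liver transcriptome responds to lipodystrophy and to FGF21 given as a gene therapy. Liver RNA-Seq was available for 24 female mice: 7 vehicle-treated controls, 3 FGF21-treated controls, 6 vehicle-treated Lmna ADKO mice, and 8 FGF21-treated Lmna ADKO mice. In Lmna ADKO mice, exons 10 and 11 of Lmna are flanked by loxP sites and deleted by Cre under the Adipoq promoter, so the deletion is in adipocytes and the hepatocytes that make up most of the liver keep Lmna. Controls carried the same loxP-flanked alleles without Cre, by the study's methods, and are named WT in the labels. The paper states a C57BL/6J background for Lmna ADKO mice. By the study's methods, mice were 12 to 14 weeks old at the start and were fed a 60% fat diet. Treatment was an AAV8 vector for mouse FGF21 or vehicle without vector. By the results text, the mice were housed at 22°C, and all 4 groups were on the diet from 4 weeks before treatment. Livers were taken 8 weeks after treatment. In the labels the treatment is named only as a rescue, taken here to be FGF21. Each library is a separate animal, and library numbers follow, group by group, the animal numbers of the labels from low to high.

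NRF2 is held in the cytoplasm by KEAP1, which presents it to a CUL3 ubiquitin ligase for degradation. Electrophiles and oxidants modify cysteines of KEAP1, NRF2 then accumulates, pairs with a small MAF protein, and binds antioxidant response elements near genes for glutathione synthesis, thioredoxin reduction, quinone detoxification, and NADPH supply. In liver this program is known for its part in the handling of xenobiotics and reactive metabolites. Because NRF2 is controlled mainly through its stability, levels of Nfe2l2 mRNA do not measure its activity.

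Library totals ran from 19863304 to 21510054 counts. Levels are given as CPM, read counts relative to the TMM-scaled size of the library, and genes were tested in 1 edgeR quasi-likelihood fit of the 4 groups. The Benjamini-Hochberg method adjusted p-values over all 23972 genes, and a gene counted as called when its adjusted p was under 0.05 and its fold change above 1.5. Hepatocyte markers (6 genes) were abundant in every library and summed to between 65947 and 139020 CPM. Lmna was detected in every library and with vehicle averaged, by genotype, 18.6 ± 2.47 CPM (SD, n = 7) for controls against 26.7 ± 2.57 CPM (SD, n = 6) for Lmna ADKO, so it does not check a deletion made in adipocytes. Counts on Fgf21, in which native and vector transcripts were not separated, ranged from 1.90 to 10.8 CPM in vehicle-treated controls and from 3.14 to 7.40 CPM in FGF21-treated controls, and from 4.63 to 10.6 CPM and from 2.19 to 9.99 CPM in the corresponding Lmna ADKO groups, so they do not set the treated groups apart. Long genes were low relative to short genes in 3 libraries, with slopes of log2 CPM per log2 of gene length of -0.331 in ADKO FGF21 library 7, -0.289 in library 3 of the FGF21-treated controls, and -0.154 in library 3 of the vehicle-treated controls, against -0.109 to 0.128 elsewhere. Animal numbers have 3 digits for 6 of the 7 vehicle-treated controls and 4 digits for 5 of the 6 vehicle-treated Lmna ADKO mice. They have 4 digits for all 3 FGF21-treated controls and for 4 of the 8 FGF21-treated Lmna ADKO mice. What the digits stand for is not stated.

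With vehicle, 3 of the 9 genes were called higher in Lmna ADKO livers than in controls, namely Srxn1, Gclc, and Nqo1, and 0 were called lower. The 6 others, Nfe2l2 and Keap1 among them, were not called. Over all genes tested, 8.48% were called in this comparison (5.12% higher and 3.36% lower). Among the 14699 genes kept by filterByExpr, a filter on low counts, 13.5% were called. The median log2 fold change was 0.25 over the 9 genes and 0.003 over all genes. Because whole liver was sequenced, a change in the number of cells of a type cannot be told apart from a change in RNA per cell.

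Srxn1 encodes sulfiredoxin, which reduces overoxidized peroxiredoxins, and lies on the plus strand at chr2:152105516-152111376 (GRCm38). It was at 35.8, 41.7, and 57.1 CPM (lowest, median, highest of 7) in vehicle-treated controls and at 75.6, 93.7, and 115 CPM (lowest, median, highest of 6) in vehicle-treated Lmna ADKO livers. All 6 Lmna ADKO libraries therefore lay above all 7 controls, a separation that 7.95% of all genes showed in either direction and 4.22% in the upward one. Srxn1 was 2.19-fold higher (log2 fold change 1.13, SE 0.149, adjusted p = 5.64e-06).

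Nqo1, the NAD(P)H quinone dehydrogenase that reduces quinones without forming radicals, lies on the minus strand at chr8:107388225-107403206. Its level was 7.08, 9.17, and 11.2 CPM (lowest, median, highest) in vehicle-treated controls and 13.9, 15.6, and 18.5 CPM in vehicle-treated Lmna ADKO livers. The groups did not overlap. Nqo1 was 1.80-fold higher (log2 fold change 0.845, SE 0.129, adjusted p = 3.64e-05), although per kilobase of exons it remained the lowest of the 8 well-detected genes in every group.

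Gclc encodes the catalytic subunit of glutamate-cysteine ligase, the first and rate-limiting enzyme of glutathione synthesis, and lies on the plus strand at chr9:77754535-77794485. It ranged from 121 to 269 CPM in vehicle-treated controls, with a median of 155 CPM, and from 240.2 to 461 CPM in vehicle-treated Lmna ADKO livers, with a median of 282 CPM. The groups overlapped through control library 2, the highest control, and 3 of 6 Lmna ADKO libraries lay above all controls. Gclc was 1.84-fold higher (log2 fold change 0.88, SE 0.186, adjusted p = 0.00146).

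All 3 calls remained with each library left out in turn and with the digits of the animal number as a covariate, which gave log2 fold changes of 1.04 for Srxn1, 0.68 for Nqo1, and 0.96 for Gclc (adjusted p = 0.000351, 0.00223, and 0.00567). Only 1 vehicle-treated control has a 4-digit number (library 7), at 44.1 CPM of Srxn1, 11.2 CPM of Nqo1, and 178 CPM of Gclc. The only vehicle-treated Lmna ADKO mouse with a 3-digit number (library 1) was at 89.3, 15.3, and 352 CPM. Each of these libraries lay on the side of its genotype for the 3 genes. For Srxn1 and Nqo1 this had to be so, because the groups did not overlap. Control library 7 was also the highest control for Nqo1. With 1 such animal per genotype, digits and genotype cannot be told apart this way.

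Neither the factor nor its sensor was called. Nfe2l2 (minus strand, chr2:75675513-75704641) averaged 71.7 ± 5.89 CPM (SD, n = 7) for vehicle-treated controls against 83.9 ± 10.1 CPM (SD, n = 6) for vehicle-treated Lmna ADKO livers. In 5 of the 6 Lmna ADKO libraries it was above all controls, and in the other, library 4, it was at 65.3 CPM. The log2 fold change was 0.23 (SE 0.11, approximate 95% interval 0.011 to 0.444, adjusted p = 0.181). Keap1 (minus strand, chr9:21229730-21239361) averaged 63.2 ± 7.56 CPM (SD, n = 7) against 56.9 ± 1.52 CPM (SD, n = 6), and each Lmna ADKO value lay within the range of controls. Its log2 fold change was -0.15 (interval -0.315 to 0.0122, adjusted p = 0.253). Of the exonic bases of Keap1, 10.9% are shared with Gm16754 on the opposite strand, which libraries made with dUTP can tell apart if strand was used in counting.

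Gclm encodes the modifier subunit that pairs with GCLC, and lies on the plus strand at chr3:122245557-122270732. Unlike Gclc, it was not called, averaging 91.5 ± 15.8 CPM (SD, n = 7) for vehicle-treated controls against 109 ± 10.2 CPM (SD, n = 6) for vehicle-treated Lmna ADKO livers (log2 fold change 0.25, SE 0.122, interval 0.0101 to 0.49, adjusted p = 0.186). Its exons share 3.9% of their bases with Gm6061 on the same strand, so reads there may be divided between these genes. Per kilobase of exons, Gclc stood at 1.84 to 5.72 times Gclm in vehicle-treated controls, with a median of 2.59, and at 3.35 to 6.98 times Gclm in vehicle-treated Lmna ADKO livers, with a median of 4.59. These ranges overlap, and the difference of the ratios was not tested.

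Hmox1 (plus strand, chr8:75093621-75100589) encodes heme oxygenase 1, which breaks down heme. It averaged 35.7 ± 5.57 CPM (SD, n = 7) for vehicle-treated controls against 33.1 ± 3.34 CPM (SD, n = 6) for vehicle-treated Lmna ADKO livers, and none of the Lmna ADKO libraries exceeded the highest control (log2 fold change -0.11, interval -0.339 to 0.128, adjusted p = 0.613). Txnrd1 (plus strand, chr10:82833951-82897712), the cytosolic thioredoxin reductase, averaged 104 ± 13.3 CPM (SD, n = 7) against 110.3 ± 9.12 CPM (SD, n = 6), and its log2 fold change was 0.09 (interval -0.135 to 0.305, adjusted p = 0.686). The intervals of both genes leave out a 1.5-fold change in either direction.

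Slc7a11 (minus strand, chr3:49892526-50443614) encodes the cystine importer xCT, and was close to the limit of detection. Over the libraries of a group it totalled 14 counts in 7 vehicle-treated controls, 1 count in 3 FGF21-treated controls, 37 counts in 6 vehicle-treated Lmna ADKO livers, and 29 counts in 8 FGF21-treated Lmna ADKO livers. More than 3 counts were reached in 1, 0, 3, and 4 of these libraries, respectively. Its log2 fold change with vehicle was 1.45 (SE 0.609, adjusted p = 0.115). It was called when control library 4, the control with the most counts, was left out (log2 fold change 1.98, adjusted p = 0.0404), so at this depth the comparison depends on a few reads.

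**Figure D1:**
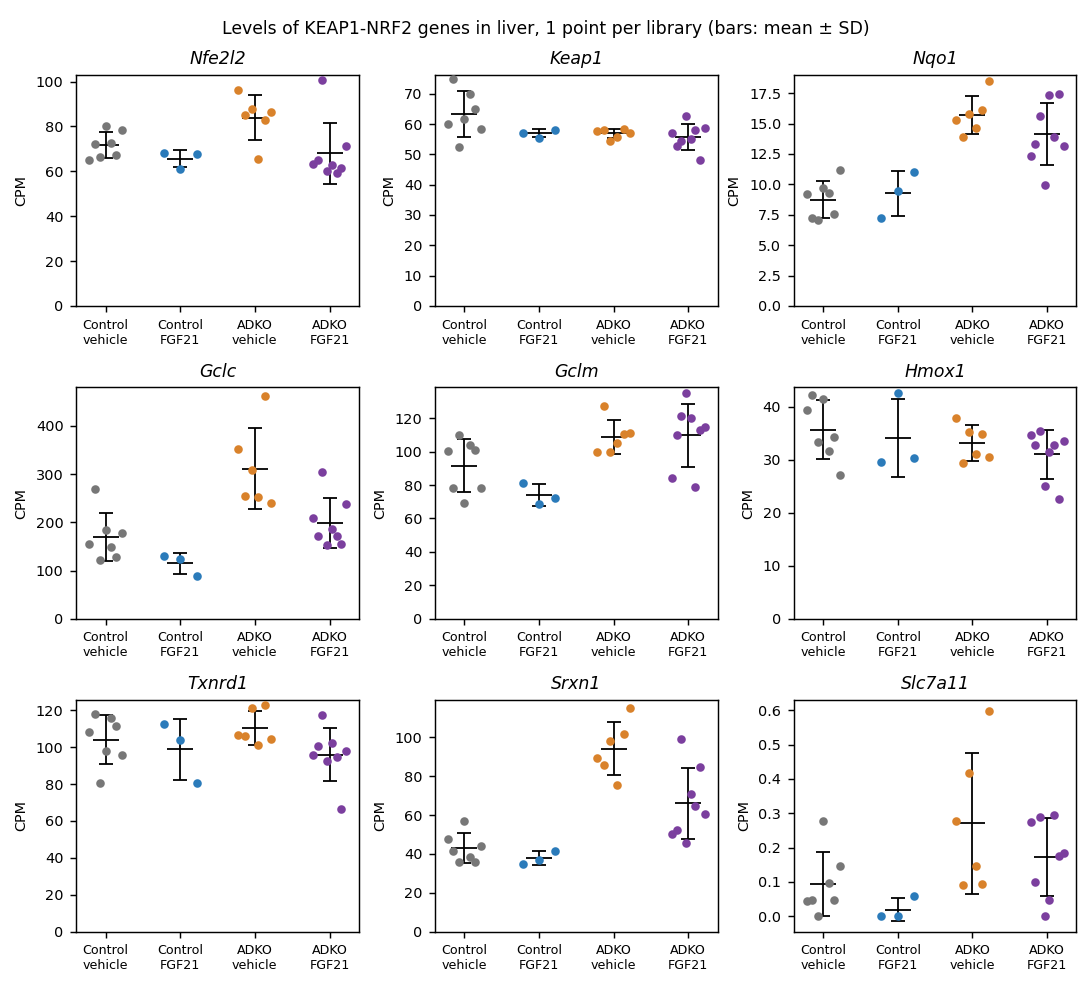
Level in CPM (y axis, linear) of each of the 9 genes in the 4 groups (x axis), with 1 point per library and bars for the mean ± SD. Srxn1 and Nqo1 did not overlap between the vehicle-treated genotypes (Srxn1 35.8 to 57.1 against 75.6 to 115 CPM), Gclc overlapped through 1 control, and Slc7a11 reached at most 0.598 CPM.

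The short sequences that a pathway description calls antioxidant response elements were looked for in RefSeq promoter windows (GRCm38.p6, from 250 bases before to 50 bases after the start of each transcript), because they are where NRF2 would act on these genes. Windows were given for 7 of the 9 genes, with none for Gclc and Hmox1. The core TGACNNNGC, on either strand, occurred in 12.4% of 32851 windows genome-wide, and TGACTCA, an AP-1 element that resembles it, in 5.2%. The core was present in windows of Nfe2l2, Gclm, Srxn1, and 1 of 3 windows of Txnrd1, and was not found in those of Keap1, Nqo1, and Slc7a11. The Srxn1 window held it once and TGACTCA at 2 further places. Each match is given with 10 bases on either side, 5′ to 3′ on the strand that reads as the motif, which is in capitals.
Srxn1, chr2:152105542-152105570, minus strand: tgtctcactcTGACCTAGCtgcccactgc
Srxn1, chr2:152105469-152105495, minus strand: gcccggccgcTGACTCAgggtgaattt
Srxn1, chr2:152105412-152105438, minus strand: cacagcgtggTGACTCAggccctccga
Nfe2l2, chr2:75704885-75704913, minus strand: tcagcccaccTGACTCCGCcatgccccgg
Gclm, chr3:122245413-122245441, minus strand: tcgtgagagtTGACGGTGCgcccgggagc
Txnrd1, chr10:82859104-82859132, minus strand: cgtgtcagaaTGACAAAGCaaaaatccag
Among these genes, Srxn1 was called higher with vehicle and Nfe2l2, Gclm, and Txnrd1 were not, and Nqo1 was called with no match in its window. A match describes letters only, and enhancers outside these windows were not examined.

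Per kilobase of exons, the order of levels in vehicle-treated controls was Gclc (44.9 CPM per kb), Hmox1 (20.4), Nfe2l2 (18.9), Srxn1 (15.2), Txnrd1 (14.7), Gclm (14.5), Keap1 (13.5), Nqo1 (5.63), and Slc7a11 (0.00679). Gclc exceeded Hmox1, and Nfe2l2 exceeded Srxn1, in 7 of 7 controls. Hmox1 exceeded Nfe2l2 in 5 of 7, Srxn1 exceeded Txnrd1 in 4 of 7, and Txnrd1 exceeded Gclm in 3 of 7, so these neighbors were not separated beyond their spread. In vehicle-treated Lmna ADKO livers Srxn1 stood second, at 33.4 CPM per kb behind Gclc at 82.7, and exceeded Nfe2l2 in 6 of 6 libraries. Srxn1 was again second in FGF21-treated Lmna ADKO livers, at 23.4 CPM per kb, and above Nfe2l2 in 8 of 8 libraries.

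With FGF21, 2 of the 9 genes were called higher in Lmna ADKO livers than in controls and 0 lower, where 2.88% of all genes were called (1.61% higher and 1.26% lower). These were Srxn1 and Nqo1. Among the 14699 genes kept by filterByExpr, 5.7% were called. Srxn1 was at 34.7, 36.8, and 41.7 CPM in the 3 FGF21-treated controls and at 45.8, 62.8, and 99.0 CPM (lowest, median, highest of 8) in FGF21-treated Lmna ADKO livers. All 8 were above the 3 controls, a separation seen in 5.35% of all genes (2.98% in the upward direction), and the log2 fold change was 0.81 (SE 0.19, adjusted p = 0.0126). Nqo1 was at 7.27, 9.49, and 11 CPM in the controls and at 9.91, 13.6, and 17.4 CPM (lowest, median, highest) in Lmna ADKO livers, with 7 of 8 above all controls (log2 fold change 0.61, SE 0.164, adjusted p = 0.0292).

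Neither of the glutamate-cysteine ligase genes was called, although Gclc was called with DESeq2 (adjusted p = 0.0149), with the genes kept by filterByExpr (0.0429), and with the length slope as a covariate (0.0453). Gclc was at 89.7, 124, and 131 CPM in the FGF21-treated controls and at 153, 179, and 304 CPM (lowest, median, highest) in FGF21-treated Lmna ADKO livers. Its groups did not overlap, but the adjusted p was 0.0564 (log2 fold change 0.79, SE 0.237). Gclm was at 68.4, 72.3, and 81.1 CPM in these controls and at 78.8, 114, and 135 CPM (lowest, median, highest) in the Lmna ADKO livers, with 7 of 8 above all controls. Its adjusted p was 0.0316, but its 1.48-fold difference was under the fold threshold (log2 fold change 0.57, SE 0.154). Of the 5 other genes, 4 were close to 0, with log2 fold changes of 0.05 for Nfe2l2, -0.03 for Keap1, -0.14 for Hmox1, and -0.04 for Txnrd1, and with intervals that leave out a 1.5-fold change. The other, Slc7a11, had the largest ratio but rested on 29 counts against 1, at most 1 count in each control (rate ratio 10.2, exact 95% interval 1.68 to 415 for counting error only), and was not called (adjusted p = 0.163).

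This arm rests on 3 controls, and its 2 calls were less stable than those with vehicle. Neither Srxn1 nor Nqo1 was called when only the groups compared entered the fit (adjusted p = 0.0842 and 0.136), among libraries with 4-digit numbers (0.0618 and 0.222), or without control FGF21 library 2 (0.0687 and 0.0972). In the same settings the log2 fold changes were 0.79 to 0.89 for Srxn1 and 0.60 to 0.73 for Nqo1. These settings called, in that order, 1.44%, 0.617%, and 1.74% of all genes, against 2.88% without these changes. Neither Srxn1 nor Nqo1 was called without control FGF21 library 1 either, where 3.1% of all genes were called.

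**Figure D2:**
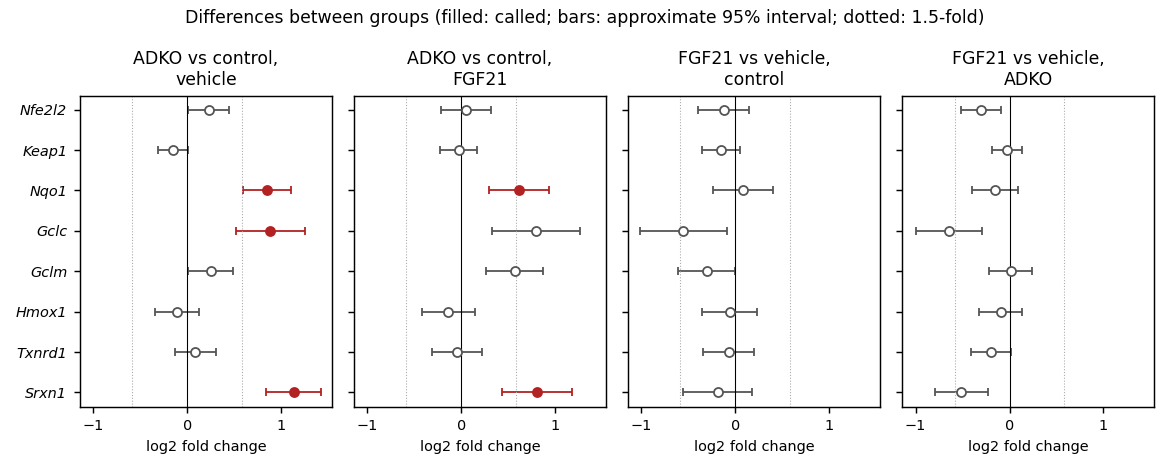
Log2 fold change (x axis) of the 8 well-detected genes (y axis) in 4 comparisons, with bars for the approximate 95% interval, filled red points for called genes, and dotted lines at a 1.5-fold change. Called genes appear only in the genotype comparisons, 3 with vehicle and 2 with FGF21, and no gene was called for FGF21 against vehicle.

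FGF21 against vehicle was compared within Lmna ADKO livers, where 0 of the 9 genes and 0% of all genes were called with edgeR. At an unadjusted p under 0.05, edgeR counted 3 of the 9 genes and 1608 of all genes (6.71%), and DESeq2 called 0 of the 9 and 15 of all genes. The median log2 fold change of the 9 genes was -0.20, with 8 of 9 below 0. The 3 genes were Gclc (log2 fold change -0.65, SE 0.179, adjusted p = 0.537), Srxn1 (-0.51, SE 0.143, adjusted p = 0.537), and Nfe2l2 (-0.30, SE 0.107, adjusted p = 0.694).

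In Lmna ADKO livers, Gclc averaged 199 ± 51.3 CPM (SD, n = 8) under FGF21 against 312 ± 84.7 CPM (SD, n = 6) under vehicle, and 7 of 8 treated libraries lay below all 6 vehicle libraries. Srxn1 was at 66.1 ± 18.2 CPM (SD, n = 8) against 94.3 ± 13.8 CPM (SD, n = 6), with 6 of 8 below. Nfe2l2 was at 68.0 ± 13.8 CPM (SD, n = 8) against 83.9 ± 10.1 CPM (SD, n = 6), also with 6 of 8 below. Gclm did not share this, at 109.7 ± 19.0 CPM (SD, n = 8) against 109 ± 10.2 CPM (SD, n = 6).

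Whether Gclc and Srxn1 were called depended on a single treated animal. ADKO FGF21 library 3 had 101 CPM of Nfe2l2, 304 CPM of Gclc, 99.0 CPM of Srxn1, and 117 CPM of Txnrd1, each the highest of its group. For 6 of the 8 well-detected genes it lay within the range of vehicle-treated Lmna ADKO livers, against 5 genes for library 5 and 0 to 3 for the 6 others. Without it, Gclc and Srxn1 were called lower with FGF21 (log2 fold changes -0.76 and -0.62, adjusted p = 0.0402 and 0.0307), and Nfe2l2 had an adjusted p of 0.0307 with a change under 1.5-fold (-0.41). In that fit 61 of all genes, 0.254%, were called. The labels do not set this animal apart. It stands out by its values of these same genes, so the fit without it is not an independent test of FGF21. In the fit of all libraries neither Gclc nor Srxn1 was called.

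**Figure D3:**
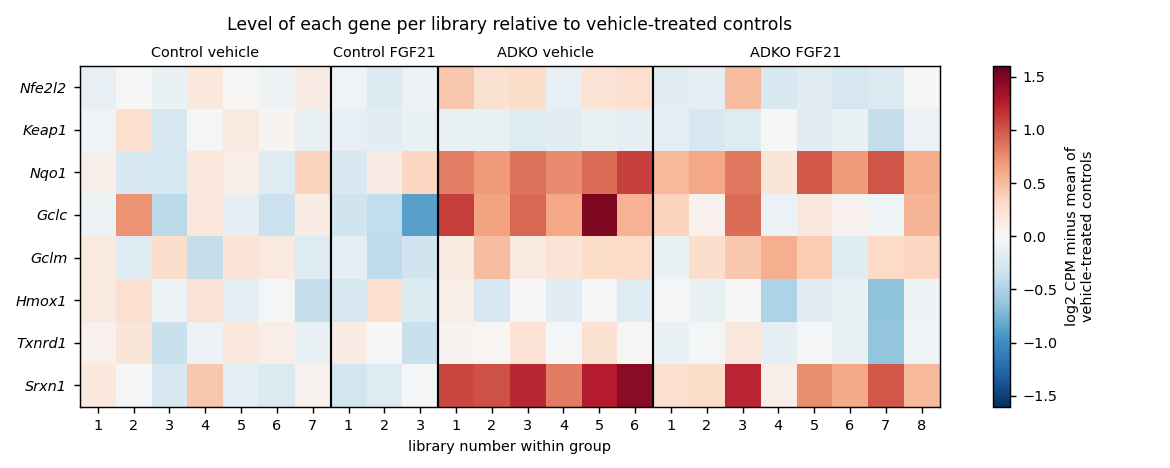
Log2 CPM of the 8 well-detected genes (rows) in the 24 libraries (columns, numbered within groups), minus the mean of vehicle-treated controls, with red for higher and blue for lower levels. Values run from -0.87 to 1.49. Srxn1 and Nqo1 are above the control mean in all Lmna ADKO columns, palest in ADKO FGF21 library 4. ADKO FGF21 library 3 is the reddest of its group for Nfe2l2, Gclc, and Srxn1. Most of its group is pale for Nfe2l2 and Gclc, whereas the group mean of Srxn1 is 0.59.

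In controls, FGF21 against vehicle gave 0 calls among the 9 genes with edgeR, where 0.0542% of all genes were called. DESeq2 also called 0 of the 9, and edgeR counted 1 gene at an unadjusted p under 0.05, as it did 6.16% of all genes. That gene was Gclc, averaging 115 ± 22 CPM (SD, n = 3) under FGF21 against 169 ± 49.5 CPM (SD, n = 7) under vehicle (log2 fold change -0.56, SE 0.237, adjusted p = 0.753). The interval for Srxn1 ran from -0.554 to 0.178 and that for Nqo1 from -0.241 to 0.398 on the log2 scale. All 3 FGF21-treated controls have 4-digit animal numbers against 1 of 7 vehicle-treated controls, so treatment and digits can hardly be told apart in controls. With the digits as a covariate, 0 of all genes were called in this comparison, against 13 without it. In the interaction of genotype and treatment, edgeR called 0 of the 9 genes and counted 0 at an unadjusted p under 0.05, and DESeq2 called 0. Of all genes, edgeR called 0.00417% and counted 4.86% at an unadjusted p under 0.05. The interaction for Gclc was -0.09 (interval -0.663 to 0.483) and for Srxn1 -0.32 (interval -0.781 to 0.133), which leaves room for a difference larger than 1.5-fold in either gene.

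Other genes of the pathway were read as 8 lists with 67 genes in all. With vehicle, 16 of 67 (23.9%, against 8.48% of all genes) were called higher in Lmna ADKO livers and 0 lower, with a median log2 fold change of 0.113. DESeq2 called 17 of them and 8.98% of all genes, and the digits as a covariate left 12 of them and 6.69% of all genes. Among the 14699 genes kept by filterByExpr, 13.5% were called. The lists were chosen with earlier results of these data known, so these shares are not a test of the lists. The 16 calls fell in 3 of the 8 lists.

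Of 18 detoxification and export targets, 11 were called higher and the median log2 fold change was 0.724. Gsta1, a glutathione S-transferase, was at 0.195 to 2.56 CPM in controls and 5.68 to 22.1 CPM in Lmna ADKO livers (log2 fold change 4.06, SE 0.701, adjusted p = 0.000422). The transferases Gstm3 (2.25), Gstp1 (1.38), and Gstm1 (0.60) were also called, but all 4 have close paralogs between which reads could be divided. Cbr3, a carbonyl reductase, averaged 1.04 ± 0.366 CPM (SD, n = 7) for controls against 8.75 ± 5.72 CPM (SD, n = 6) for Lmna ADKO (log2 fold change 3.07, SE 0.559, adjusted p = 0.000659). Aox1 (1.24), an aldehyde oxidase, Ugdh (1.29), which makes UDP-glucuronate, and Ephx1 (0.98), the microsomal epoxide hydrolase, were called with no overlap between groups. Ptgr1 (0.81), Abcc4 (0.85), an export pump, and Cbr1 (0.64) completed the 11. Osgin1 was not called, averaging 165 ± 87.8 CPM (SD, n = 7) for controls against 91.3 ± 41.9 CPM (SD, n = 6) for Lmna ADKO.

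Of 6 NADPH supply genes, 4 were called higher, with a median of 0.757. Pgd, of the oxidative pentose phosphate pathway, averaged 47.8 ± 7.99 CPM (SD, n = 7) for controls against 95.5 ± 15.7 CPM (SD, n = 6) for Lmna ADKO (log2 fold change 0.999, SE 0.148, adjusted p = 2.58e-05). Tkt (0.94) and Taldo1 (0.63), of its non-oxidative branch, and Me1 (0.89), malic enzyme, did not overlap between groups either. G6pdx, which starts the oxidative branch, was not called (0.11, SE 0.136, adjusted p = 0.641).

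In the glutathione and cystine list 1 of 8 genes was called, Gpx4 (0.90, SE 0.222, adjusted p = 0.00594), the phospholipid hydroperoxidase, whereas Gss (0.58) and Gsr (0.33) had an adjusted p of 0.00528 and 0.0166 under the fold threshold. None was called among 10 NRF2 partners and regulators, 9 thioredoxin and peroxiredoxin genes, 6 heme and iron genes, 4 superoxide and peroxide enzymes, and 6 ATF4 genes with edgeR. At an unadjusted p under 0.05 edgeR counted 4, 4, 0, 0, and 2 of these, against 27% of all genes. Under the fold threshold, an edgeR adjusted p below 0.05 was reached by 2 of the partners and regulators, which were higher. It was also reached by 1 higher and 2 lower thioredoxin and peroxiredoxin genes and by 1 higher and 1 lower ATF4 gene. Without the fold threshold, 15.1% of all genes reached it. With FGF21, 6 of the 67 genes were called (8.96%, against 2.88% of all genes and 5.7% of those kept by filterByExpr). Pgd (0.996), Tkt (0.63), Taldo1 (0.64), Aox1 (0.61), and Ugdh (1.06) were higher in Lmna ADKO livers, and Txnip (-0.97, adjusted p = 0.0469), which encodes an inhibitor of thioredoxin, was lower. The 6 became 1 among libraries with 4-digit numbers, 2 with only the groups compared, 2 without control FGF21 library 3, 3 without ADKO FGF21 library 3, and 10 with DESeq2. In the same order, these settings called 0.617%, 1.44%, 1.41%, 2.35%, and 4.26% of all genes, so the share over all genes moved too. For FGF21 against vehicle, edgeR and DESeq2 called 0 of the 67 in either genotype.

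**Figure D4:**
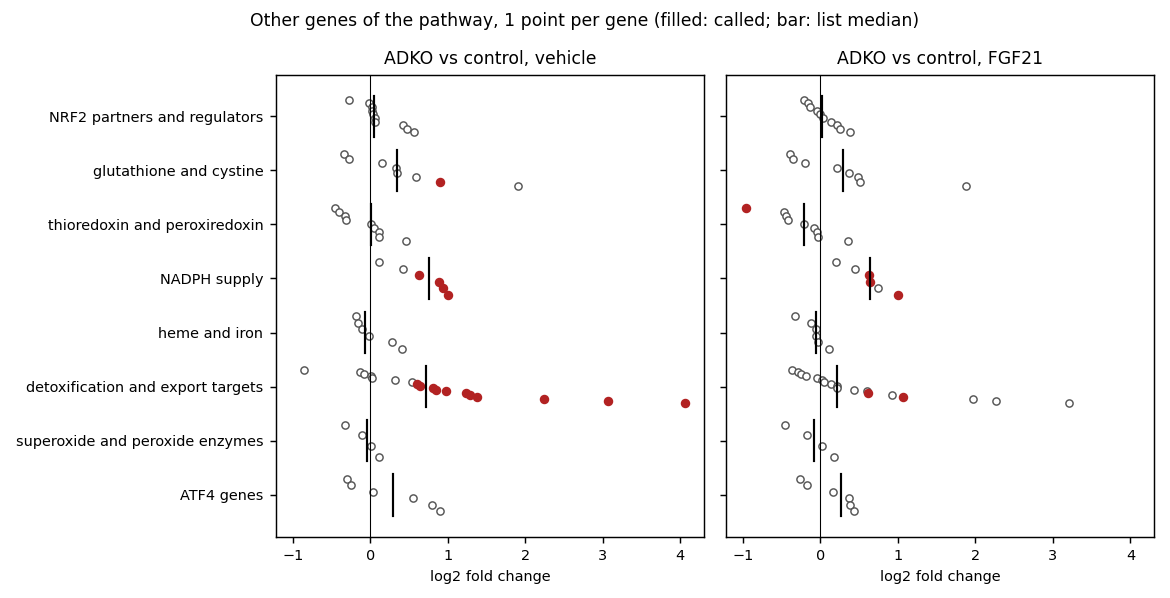
Log2 fold change (x axis) of the 67 other pathway genes by list (y axis), Lmna ADKO against control with vehicle (left) and with FGF21 (right), with filled red points for called genes and a bar for each list's median. With vehicle the red points lie in the detoxification and export (11 of 18), NADPH supply (4 of 6), and glutathione (1 of 8) lists.

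The genes whose pattern was most like that of each member were found by the root mean square difference of standardized log2 CPM over the 24 libraries, among 11313 genes. The nearest to Srxn1 was Scamp5 (0.228), to Nqo1 Fyb2 (0.372), to Gclc Cxadr (0.368), to Txnrd1 Ddb1 (0.491), to Nfe2l2 Kifc3 (0.515), to Gclm Eif4e (0.707), to Hmox1 Cdc25a (0.722), and to Keap1 9430064I24Rik (0.646). Among the other members, Srxn1 was the nearest to Nqo1, at position 21 of the ranking (0.44), and Nqo1 was the nearest to Srxn1, at position 75. For Gclc the nearest member was Srxn1 at position 209 (0.667), and for Gclm it was Srxn1 at position 809 (1.02). After group means were subtracted, the member nearest to Nqo1 was again Srxn1, at position 10 (0.702), but the member nearest to Gclc became Txnrd1, at position 202 (0.858), and that nearest to Gclm became Txnrd1, at position 5400 (1.38). Slc7a11 was nearest to Gpnmb (0.564). Its own group means of log2 CPM, -3.16 to -1.63, were below the mean of 1 required of the genes compared, so its pattern rests on few reads.

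Markers of liver cell types moved in some comparisons. With vehicle, 1 of 10 Kupffer cell and macrophage genes (Gpnmb, log2 fold change 2.19, adjusted p = 0.0451) and 3 of 6 stellate cell genes were called higher in Lmna ADKO livers, as were 1 of 5 cholangiocyte, 1 of 5 endothelial, and 1 of 3 erythroid genes. Over all genes, 5.12% were called higher and 3.36% lower. Of the 10 macrophage genes, 6 had a log2 fold change below 0, the lowest being -1.24, and the median was -0.046. Values below 0 were also seen for 2 of the 6 stellate cell genes (list median 0.736) and 3 of the 5 endothelial genes (median -0.274). All 5 cholangiocyte and all 3 erythroid genes were above 0. Of the 6 hepatocyte markers 2 were called lower, Cps1 (log2 fold change -0.93, adjusted p = 0.00155) and Serpina1a (-0.95, adjusted p = 9.81e-05), both below all controls in 6 of 6 Lmna ADKO livers. The 6 hepatocyte markers summed to 76064 to 133920 CPM in vehicle-treated controls and 66304 to 101240 CPM in vehicle-treated Lmna ADKO livers. The macrophage markers summed to 628 to 934 CPM in vehicle-treated controls and 471 to 820.3 CPM in vehicle-treated Lmna ADKO livers. Stellate cell markers summed to 87.8 to 167 CPM and 121 to 232 CPM, cholangiocyte markers to 3.79 to 8.01 CPM and 7.12 to 10.3 CPM, and endothelial markers to 194 to 244 CPM and 178 to 228 CPM. No marker of these cell types was at 0 in every library of any group. Their part in the differences of Srxn1, Nqo1, and Gclc was not tested. Between the Lmna ADKO groups, the 3 erythroid markers summed to 467 to 2291 CPM with vehicle and 735 to 4722 CPM with FGF21. Of the 6 hepatocyte markers, 3 had an unadjusted p under 0.05 in edgeR for this comparison and 0 were called, with a median log2 fold change of 0.391. The part of these markers in the lower Gclc, Srxn1, and Nfe2l2 levels was not tested either.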

How the data were processed

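The authors deposited counts of reads per gene, not normalized, for liver polyA RNA of 24 mice. Per the labels' processing notes, cutadapt 4.8, FastQC 0.11.8, STAR 2.7.8a, RSEM 1.3.3, and GRCm38 were named. The deposited counts are whole numbers, and if they came from RSEM they are estimated counts that were rounded. By the methods, genes at 0 in every sample were removed and DESeq2 was used for testing.

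Here, edgeR 4.0.16 under R 4.3.3 was used with TMM scaling, estimateDisp, a robust glmQLFit, and glmQLFTest in 1 fit of all 24 libraries and 23972 genes, with neither a filter nor a covariate. Contrasts were genotype within each treatment, treatment within each genotype, and their interaction. Standard errors are the size of the log2 fold change over the root of its F statistic, and approximate 95% intervals assume normal errors. Pattern comparisons used log2 CPM with a prior count of 2 and genes averaging a log2 CPM of 1 or more. The scripts were tested on simulated data. Library depth, 19863304 to 21510054 counts, limits precision for genes of a few counts, and 3 counts were taken as the floor. The 67 pairs of libraries within groups differed by more than sampling noise (chi-square per degree of freedom 14.1 to 196). Gene positions and exonic lengths are from GENCODE M21, which located 23926 genes, and promoter windows are from RefSeq.

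The members, the gene lists, and the alternatives were chosen with earlier results of these data known. Named genes are all members, the nearest genes by pattern, every called gene of a pathway list, and up to 3 others per list. Osgin1 was named after its values were seen. Alternatives were DESeq2 1.42.0, its size factors in edgeR, filterByExpr, no fold threshold, only the groups compared, the digits of the animal number or the length slope as a covariate, subsets of libraries, and leaving out each library. The counts of other pathway genes under these settings were added after seeing the data.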

Additional observations from a re-analysis of the deposited data

Results flagged for a closer look

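In 27 groups of 6 to 8 libraries tested for a lone value, where chance gives about 1 in 20, 2 values stood apart. That is close to the number chance gives. Nfe2l2 was at 101 CPM in ADKO FGF21 library 3, above 59.2 to 71.1 CPM in the 7 other libraries of its group. Txnrd1 was at 66.5 CPM in ADKO FGF21 library 7, below 92.2 to 117 CPM in the others. Levels also fell with gene length in this library, with a slope of -0.331, and Txnrd1 has 7086 exonic bases, but the part of the slope in this value was not tested.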

How the results depend on the processing

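No paired analysis was possible because the labels carry animal numbers and no replicate numbers shared between groups. Srxn1, Nqo1, and Gclc were called with vehicle in all 21 alternatives, with log2 fold changes of 1.06 to 1.21, 0.789 to 0.91, and 0.74 to 1.03 when 1 library was left out. The 2 calls with FGF21 became 3 with DESeq2, filterByExpr, or the length slope as a covariate (Gclc added) and with no fold threshold (Gclm added), stayed 2 with DESeq2 size factors or the digits as a covariate, and became 0 with only the groups compared, 0 among 4-digit numbers, 1 (Nqo1) without the 3 length-sloped libraries, and 0 to 3 with 1 library left out (0 without control library 2, Gclm alone without control library 1, and Srxn1 alone without ADKO library 3 or 5). Of all genes, 4.26% were called with DESeq2, 5.7% with filterByExpr, 3.85% with the length slope, and 3.85% with no fold threshold. The share was 2.9% with DESeq2 size factors, 2.1% with the digits, 1.44% with only the groups compared, and 0.617% among 4-digit numbers. It was 1.68% without the length-sloped libraries and 1.41% to 4.79% with 1 library left out, against 2.88% without these changes. For FGF21 against vehicle in Lmna ADKO livers, 0 to 2 genes were called with 1 library left out. The 2 were called without ADKO FGF21 library 3, where 0.254% of all genes were called. The fit of 4-digit numbers was set for groups with at least 3 such libraries and was not run with vehicle or in controls, where 1 vehicle-treated control has a 4-digit number. Beyond fewer samples or a covariate, the cause of these changes was not tested.

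All values that changed sign were of genes not called. With the digits as a covariate they were 0.0367 for Hmox1 with vehicle, -0.0098 for Nfe2l2 with FGF21, -0.1303 for Nqo1, 0.1174 for Hmox1, and 0.0232 for Txnrd1 by treatment in controls, -0.0136 for Gclm by treatment in Lmna ADKO livers, and 0.0509 for Nqo1 in the interaction. Among 4-digit numbers, Nfe2l2 with FGF21 gave -0.0505 and Gclm by treatment in Lmna ADKO livers -0.056. Without the length-sloped libraries, Keap1 with FGF21 gave 0.0216, Nqo1, Hmox1, and Txnrd1 by treatment in controls gave -0.1081, 0.0018, and 0.0019, and Gclm by treatment in Lmna ADKO livers gave -1e-04. With the slope as a covariate, Txnrd1 by treatment in controls gave 0.0251. With 1 library left out, log2 fold changes with FGF21 ran from -0.0617 to 0.0794 for Nfe2l2, -0.2328 to 0.0533 for Hmox1, and -0.1758 to 0.0575 for Txnrd1. By treatment in controls they ran from -0.0636 to 0.2269 for Nqo1, -0.2531 to 0.033 for Hmox1, and -0.1735 to 0.0552 for Txnrd1. By treatment in Lmna ADKO livers they ran from -0.0517 to 0.0018 for Keap1 and -0.0376 to 0.0676 for Gclm, and in the interaction from -0.2392 to 0.0554 for Gclc and -0.1269 to 0.1591 for Hmox1.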
